A study of Mus musculus with 40 samples.

Results

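Trabecular bone of the vertebrae was set against cortical bone of the limbs in mice without AF-1, the first activation function of the estrogen receptor ERα, that had received vehicle only. The samples were chosen by their source labels, 5 arrays of trabecular and 5 arrays of cortical bone, 10 of the 40 arrays in the study. All were C57BL/6 females aged 15 weeks with the AF-1 deletion in both bones' samples, ovariectomized and, 1 week later, injected under the skin with olive oil, and RNA was isolated 18 h after the injection. Trabecular RNA came from the vertebral bodies L5 and L6. Cortical RNA came from flushed shafts of long bones, for which the protocol names femora and tibiae and the sample characteristics the femur alone. The deletion and the ovariectomy were therefore common to both sides of the comparison, and what limits the labels as a model is that the bone compartment and the skeletal site change together, and flushing is named for the shafts only. Also used further on were vehicle-treated wild-type mice and AF-1-deleted mice given 17β-estradiol (E2) at 115 µg/kg, each with 5 arrays per bone. Neither the pairing of both bones within a mouse nor the use of a separate animal for each replicate is stated in the labels. The p-values therefore reflect only how these arrays vary, and that variation may be technical.

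Trabecular bone is a lattice of thin struts inside the vertebral bodies and the ends of long bones, with marrow filling the spaces between them. Cortical bone forms the dense shafts, in which osteocytes sit embedded in mineralized matrix under a fibrous periosteum to which muscle and tendon attach. Vertebral bodies hold marrow that makes blood cells, and flushing washes most of the marrow out of a shaft. In RNA of whole bone, fewer cells of a type and less RNA per cell cannot be told apart.

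RNA was measured on Illumina BeadChips, 1-colour arrays on slides, and each replicate number stood for 1 of 5 BeadChips with 1 array of each group. Values are background-corrected, quantile-normalized log2 intensities, and differences are trabecular minus cortical with the standard error of the limma fit. The trabecular arrays had 8052 detected probes on BeadChip 1 and 10407 to 10700 on the other 4, and the cortical arrays had 9880 on BeadChip 1 and 10670 to 11151 on the other 4. The trabecular array of BeadChip 1 therefore stood apart, and counts without that BeadChip are given beside the main count. Trabecular arrays of BeadChip 1 were low in the other groups used here too. In wild-type vehicle mice that array had 8573 detected probes, against 10357 to 10908 on the other BeadChips. In AF-1-deleted mice given E2 it had 9218, against 10917 to 11203. Esr1, the gene of ERα, had log2 intensities of 7.72, 7.39, 7.78, 7.94 and 7.46 in trabecular bone (BeadChips 1 to 5) and 8.08, 7.98, 9.47, 8.26 and 7.96 in cortical bone. The groups did not overlap, the difference of -0.69 ± 0.29 had an adjusted p of 0.079 by limma, and it passed with the BeadChip as a block (adjusted p = 0.040). The position of the Esr1 probe relative to the deleted sequence was not checked here, so its level says nothing about the genotype.

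The bones differed in many genes. Of 9452 genes tested, 2103 (22.2%) passed an adjusted p under 0.05 by limma, 898 (9.5%) higher and 1205 (12.7%) lower in trabecular bone. Large differences ran mostly one way: 118 genes (1.25%) were higher and 725 (7.67%) lower by more than 1 on the log2 scale. On all 5 BeadChips the sign was the same for 1896 of the 2103 genes. Over all genes tested, the values of the 5 trabecular and 5 cortical arrays did not overlap for 1596 (16.9%), of which 622 (6.58%) were higher and 974 (10.3%) lower in trabecular bone. The split depended on how arrays were scaled. With each array scaled by its median in place of quantiles, 51 genes were higher and 753 lower, and the median difference of all genes was -0.04, against 0.06 after quantile normalization. Lists with genes higher in trabecular bone are therefore given below with their count after median scaling. Without BeadChip 1 and with the BeadChip as a block, 1775 genes were higher and 1611 lower, and 1972 of the 2103 genes were shared. List counts without BeadChip 1 are given where they move by more than 1.5 times.

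**Figure D1:**
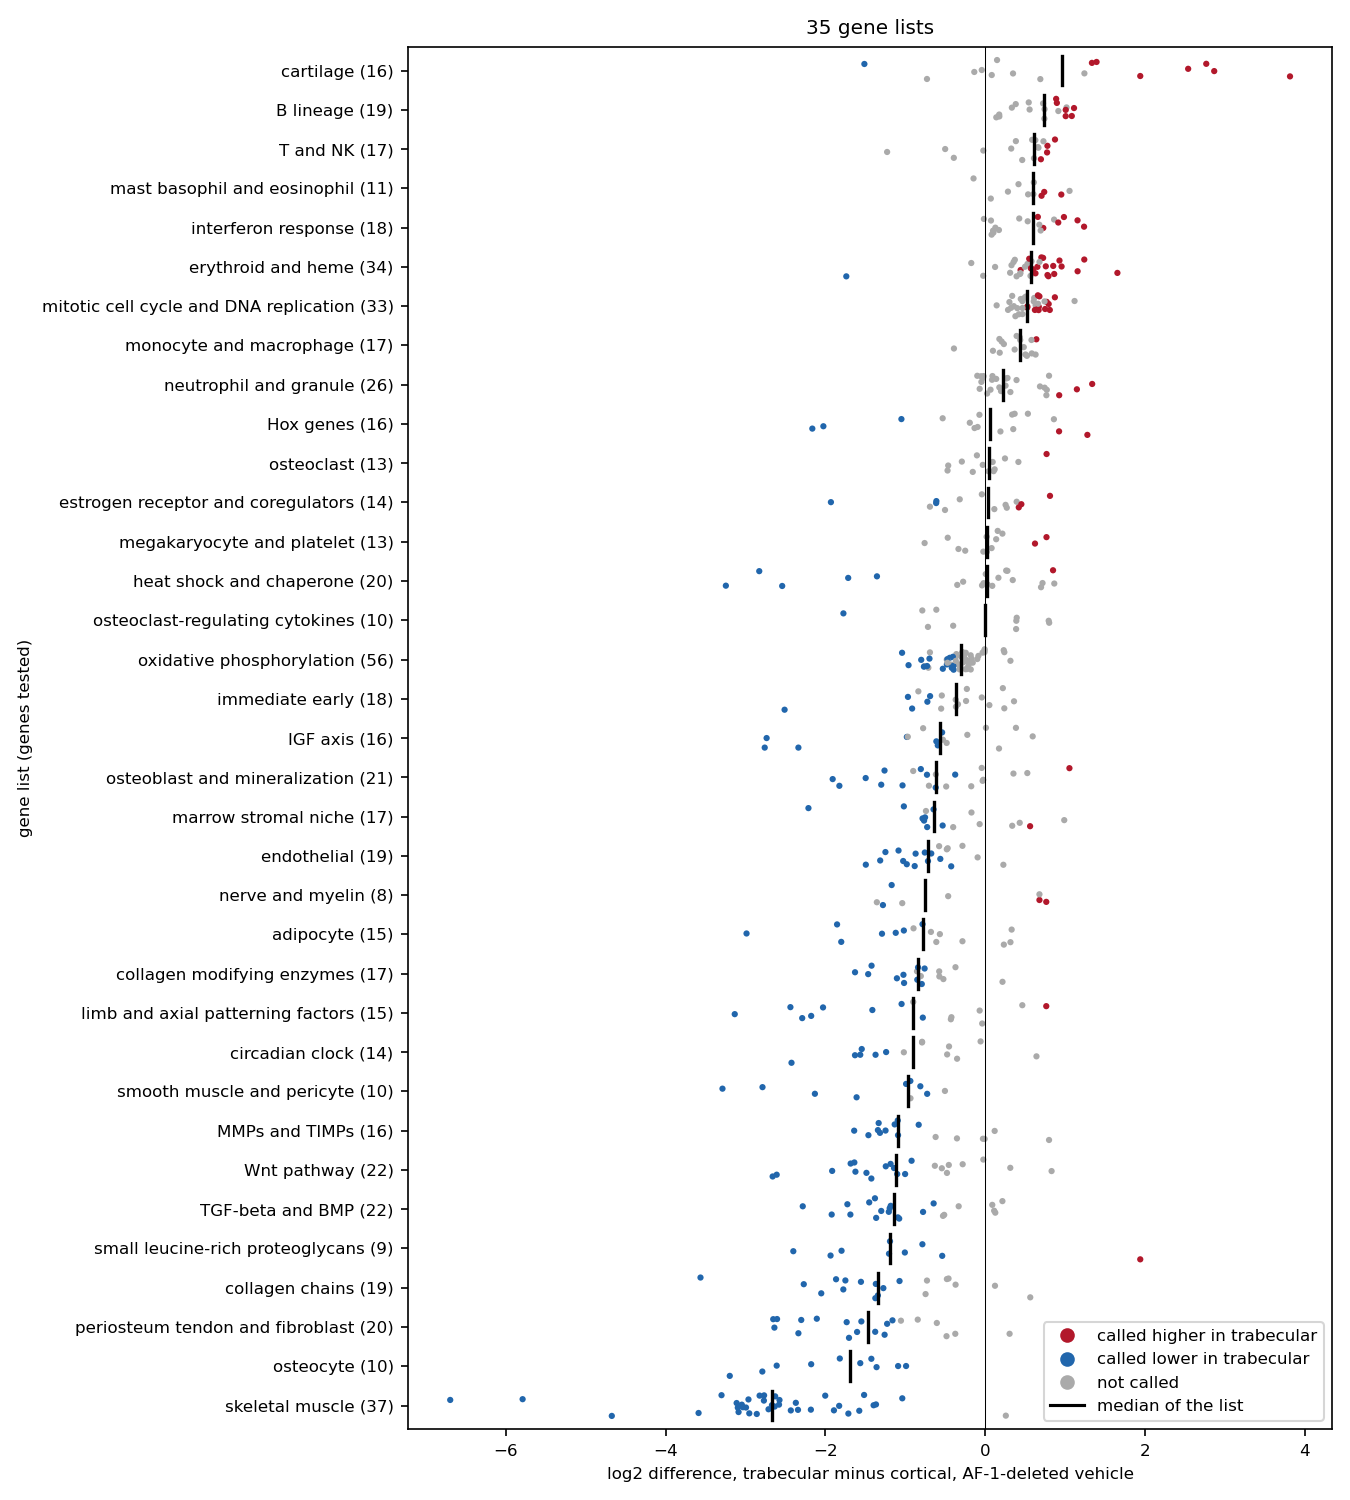
Log2 difference (trabecular minus cortical, horizontal axis) of every tested gene of 35 gene lists (vertical axis, number of genes tested in brackets), in AF-1-deleted vehicle bone. Red points passed the test higher in trabecular bone, blue points lower, grey points did not pass, and black bars are list medians, which run from -2.67 for skeletal muscle to 0.96 for cartilage.

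Genes of skeletal muscle showed the largest differences and were lower in trabecular bone. Of 37 muscle genes tested, 36 were lower, 0 were higher and 35 had groups that did not overlap, with a median of -2.67. Over all genes, 12.7% were lower and 16.9% had groups that did not overlap. Myl3, the slow-twitch and cardiac essential light chain of myosin, had 6.31, 7.57, 7.02, 6.91 and 7.23 in trabecular bone, where 4 arrays detected it, and 12.86, 13.93, 13.03, 14.34 and 14.38 in cortical bone. Its difference of -6.70 ± 0.47 (adjusted p = 6.5e-13) was the largest of the genes named here. Tnnc1, the slow-twitch and cardiac troponin C, differed by -5.79 ± 0.60, and Myl2, the matching regulatory light chain, by -4.67 ± 0.54. Acta1, the actin of skeletal muscle, was bright in both bones, with 12.57, 13.71, 13.31, 14.05 and 13.26 in trabecular and 14.51, 14.72, 14.91, 14.74 and 15.03 in cortical bone, a difference of -1.40 ± 0.25 (adjusted p = 0.00010). The groups did not overlap for Myl3 or Acta1. Acta1 lay near the top of the quantile-normalized scale, where rank sets the value, so its difference may be compressed. The mean level of the muscle list ran from 8.75 to 9.72 on trabecular and from 11.27 to 12.36 on cortical arrays, and 5 of its tested genes were detected on 0 trabecular arrays. Muscle transcripts were thus detected in both preparations at higher levels in the shafts, and their part in the results for other genes lower in trabecular bone was not tested. Further genes among the 15 largest decreases are also known from muscle, among them Fabp3, the fatty acid-binding protein of heart and muscle (-4.06 ± 0.38), Actc1, cardiac actin (-3.75 ± 1.04, adjusted p = 0.0087, and 0.076 without BeadChip 3), and Myoz2, a Z-disc protein (-4.02 ± 0.50).

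Osteocyte genes were lower in trabecular bone without exception among those tested. All 10 tested genes of the list passed the test as lower, against 12.7% of all genes, with a median of -1.69. All 10 had groups that did not overlap, against 16.9% of all genes. Of the 10, 4 were detected on 0 trabecular arrays and could be tested through cortical arrays alone. The count of lower genes may therefore be partly set by the filter on detection. Mepe, a matrix phosphoglycoprotein secreted by osteocytes, had 9.12, 7.45, 8.47, 8.75 and 8.44 in trabecular and 11.72, 11.85, 11.45, 11.76 and 11.43 in cortical bone. The lowest cortical array lay above the highest trabecular one, and the difference was -3.20 ± 0.30 (adjusted p = 2.2e-09). Sost, which encodes the Wnt inhibitor sclerostin, was detected on 0 trabecular and 5 cortical arrays. It had 5.88, 4.99, 4.92, 4.98 and 5.02 in trabecular and 8.0, 7.95, 7.38, 8.13 and 7.39 in cortical bone, so it was at least 1.86-fold lower there (adjusted p = 8.3e-08). Such a fold is a lower bound, taken against the level at which the dim group would have been detected.

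Dmp1, a matrix protein needed for osteocyte maturation, was detected on 0 trabecular and 4 cortical arrays, with group means of 5.39 ± 0.29 and 6.75 ± 0.25 (SD, n = 5 each). It passed the test (adjusted p = 0.0022), but its cortical level was too close to the detection level for a bound. Phex, the endopeptidase whose loss causes phosphate wasting, had 9.29, 8.87, 9.33, 9.85 and 9.01 in trabecular and 10.78, 11.49, 10.93, 10.79 and 10.19 in cortical bone. These values did not overlap either, with a difference of -1.56 ± 0.23. Irx5, a homeobox factor, differed by -2.18 ± 0.25, Pdpn, the podoplanin of young osteocytes, by -1.82 ± 0.26, and Ackr3, a chemokine scavenging receptor, was at least 2.59-fold lower with 0 trabecular arrays detecting it.

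Osteoblast genes split. Of 21 tested genes for osteoblasts and mineralization, 10 were lower (47.6%, against 12.7% of all genes), 1 higher (4.76%, against 9.5%) and 10 did not pass. The median was -0.62, and after median scaling 6 were lower and 0 higher. The member higher was Slc20a1, a phosphate transporter (adjusted p = 0.028), detected on 2 trabecular and 0 cortical arrays, so no size is given. Its adjusted p was 0.13 after median scaling and 0.050 to 0.13 without BeadChip 1, 2 or 4, without the trabecular array of BeadChip 1, 2 or 4, or without the cortical array of BeadChip 1, 3 or 5. Osteocalcin, the abundant matrix protein of mature osteoblasts, is encoded by near-identical copies whose probes may cross-hybridize. Bglap2 had 14.17, 14.91, 14.75, 14.97 and 14.84 in trabecular and 14.75, 14.67, 14.80, 14.64 and 14.95 in cortical bone. Its groups overlapped and the difference was -0.03 ± 0.13 (adjusted p = 0.88). The osteocalcin values lay near the top of the quantile-normalized scale, so differences may be compressed there and a small one does not show equal levels. Bglap1 gave -0.03 ± 0.15 by its brightest probe, while its 3 probes ran from -1.77 to -0.03. Bglap3 had 13.98, 14.21, 14.05, 14.43 and 13.73 in trabecular and 14.96, 14.92, 14.94, 14.93 and 14.69 in cortical bone, a difference of -0.81 ± 0.16 (adjusted p = 0.00032), without overlap. After median scaling its adjusted p was 0.080.

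Alpl, the alkaline phosphatase that frees phosphate for mineral, had 10.36, 9.80, 10.24, 10.15 and 9.96 in trabecular bone. Cortical bone had 12.03, 12.10, 12.06, 12.29 and 11.58, all above, and the difference was -1.91 ± 0.21 (adjusted p = 5.9e-08). Sp7, the transcription factor osterix, differed by -1.04 ± 0.19 (adjusted p = 0.00019, and 0.058 after median scaling), with overlap on BeadChip 5's cortical value of 11.58. Dlx3, a homeobox factor, differed by -1.83 ± 0.23, Ifitm5, an osteoblast membrane protein, by -1.26 ± 0.26, and Bmp3, a bone morphogenetic protein that limits bone formation, by -1.30 ± 0.22. The abundant matrix genes Col1a1, Spp1 and Ibsp did not pass. These 3 are named outside the rule for named genes, after their values were seen. Col1a1, type I collagen, had group means of 14.12 ± 0.43 and 14.49 ± 0.14, Spp1, osteopontin, 13.72 ± 0.31 and 13.76 ± 0.22, and Ibsp, bone sialoprotein, 12.32 ± 0.13 and 12.81 ± 0.44 in trabecular and cortical bone (SD, n = 5 each). Their differences were -0.37 ± 0.17, -0.04 ± 0.16 and -0.49 ± 0.19, with adjusted p of 0.12, 0.87 and 0.060. Col1a1 also lay near the top of the scale, where differences may be compressed. Runx2, the master factor of osteoblasts, was detected on 0 of the 10 arrays and was not tested.

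**Figure D2:**
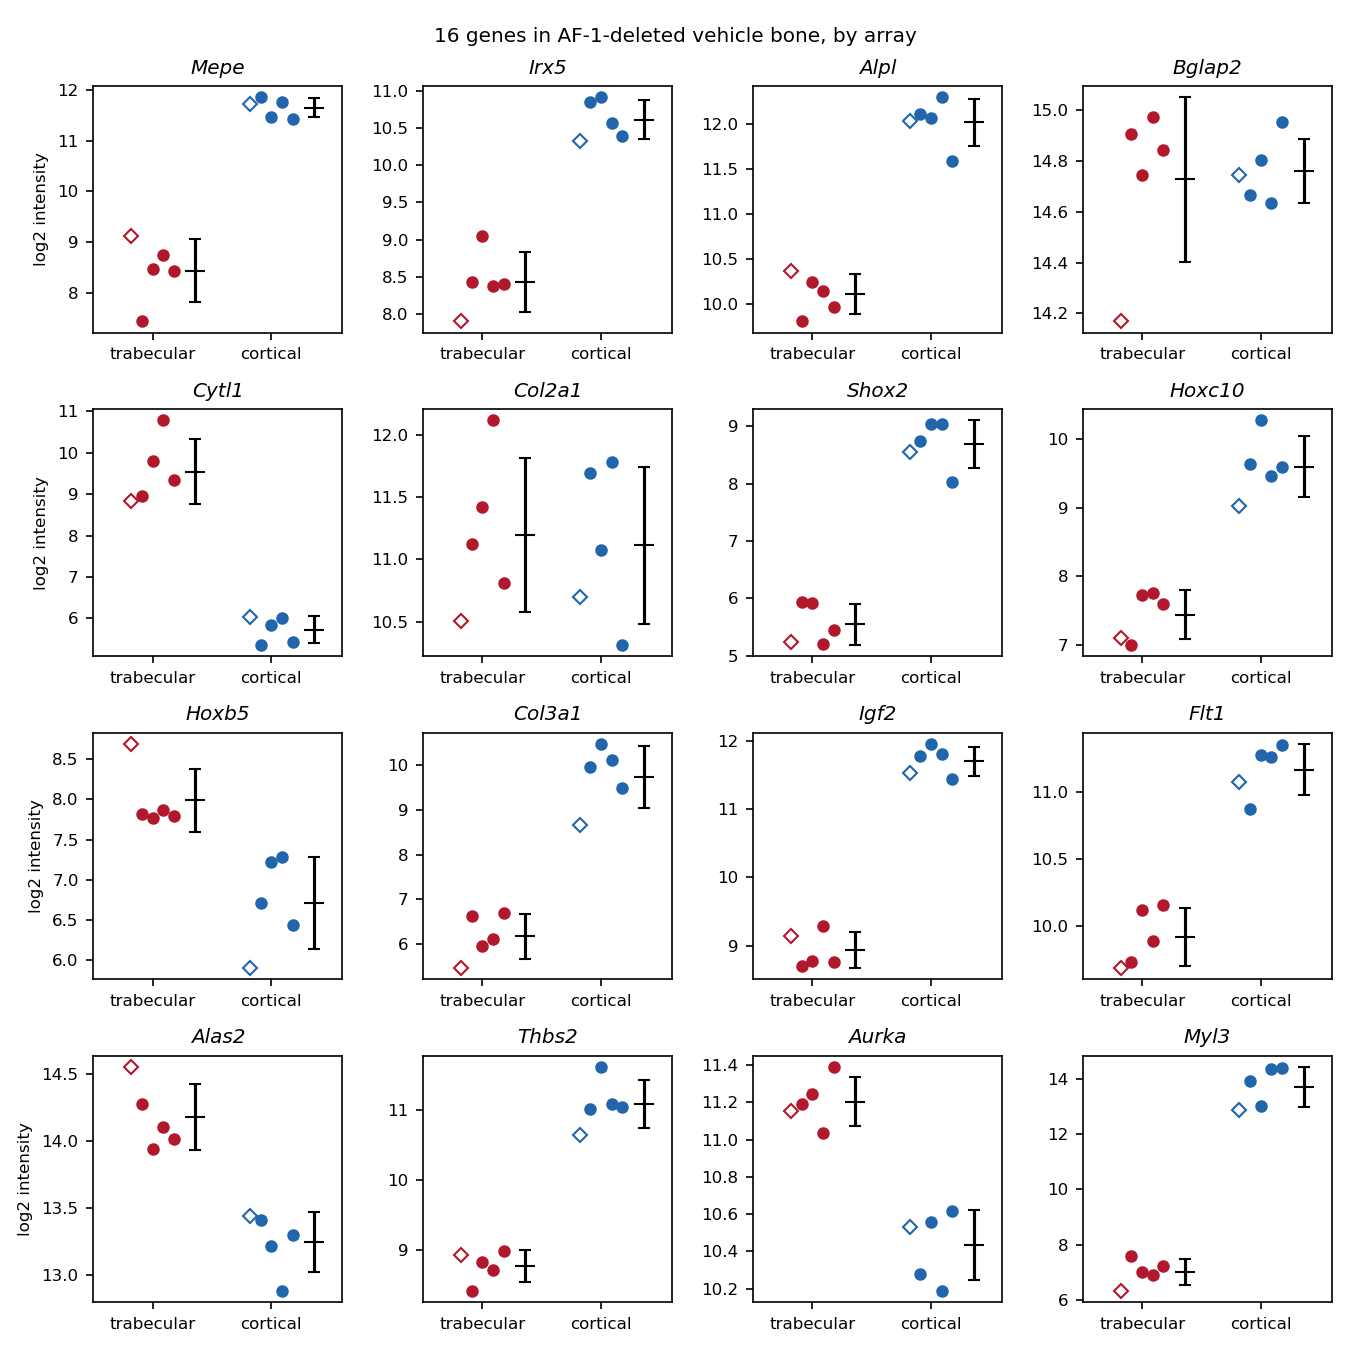
Log2 intensity (vertical axis) of 16 genes on the 5 trabecular arrays (red, left) and the 5 cortical arrays (blue, right) of AF-1-deleted vehicle bone; open diamonds are BeadChip 1, and black bars with whiskers are the mean and SD. The groups overlap for Bglap2 and Col2a1 and for none of the other 14 genes shown.

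Of 13 osteoclast genes tested, 1 was higher (7.69%, against 9.5% of all genes), 0 were lower and 12 did not pass. Without BeadChip 1 and with the block 2 were higher and 1 lower, and after median scaling 0 were higher and 0 lower. The list median of 0.04 took either sign over the alternatives. Ctsk, the collagen-degrading cathepsin of osteoclasts, had 13.04, 13.98, 13.93, 14.19 and 13.78 in trabecular and 14.87, 14.54, 14.07, 14.17 and 13.59 in cortical bone. The groups overlapped, and the difference of -0.46 ± 0.20 had an adjusted p of 0.085. Acp5, the tartrate-resistant acid phosphatase, differed by -0.16 ± 0.26 (adjusted p = 0.71). The 1 gene higher was Car2, carbonic anhydrase 2, which red cell precursors also make, at 0.77 ± 0.26 (adjusted p = 0.030). Its groups overlapped, and its adjusted p was 0.51 after median scaling, 0.090, 0.13 and 0.070 without BeadChips 2, 3 and 4, 0.077 and 0.054 without the trabecular arrays of BeadChips 1 and 2, and 0.17 and 0.051 without the cortical arrays of BeadChips 3 and 4.

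Of 10 tested osteoclast-regulating cytokines, 1 was lower (10%, against 12.7% of all genes) and 0 higher. Without BeadChip 1 and with the block, 3 were lower and 3 higher. The 1 gene lower was Tnfrsf11b, osteoprotegerin, the decoy receptor that blocks RANKL, with 8.48, 7.49, 8.66, 8.61 and 8.46 in trabecular and 9.90, 10.47, 9.91, 10.14 and 10.15 in cortical bone. The groups lay apart by more than 1 on the log2 scale, and the difference was -1.78 ± 0.35 (adjusted p = 0.00028). Tnfsf11, RANKL itself, was detected on 0 trabecular and 5 cortical arrays, with means of 6.53 ± 0.57 and 7.32 ± 0.55 (SD, n = 5 each). It did not pass (adjusted p = 0.077), and the groups overlapped.

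Cartilage genes were the group with the largest increases. Of 16 tested, 7 were higher (43.8%, against 9.5% of all genes), 1 was lower (6.25%, against 12.7%) and 8 did not pass. The median was 0.96, and after median scaling 6 were higher and 1 lower. Of the 16, 7 were detected on 0 cortical arrays and could be tested through trabecular arrays alone, and 3 were detected on 0 trabecular arrays. Over the alternatives, which did not all test the same genes, 2 to 8 were higher. Cytl1, a cytokine-like protein secreted by chondrocytes, had 8.82, 8.96, 9.80, 10.78 and 9.35 in trabecular and 6.03, 5.36, 5.83, 6.00 and 5.42 in cortical bone. With detection on 5 trabecular and 0 cortical arrays, it was at least 7.75-fold higher (adjusted p = 6.9e-08). Acan, the proteoglycan aggrecan, had 9.26, 7.08, 8.31, 8.80 and 8.27 in trabecular and 5.64, 5.61, 5.51, 5.79 and 4.85 in cortical bone, again 5 and 0 arrays with detection. It was at least 3.38-fold higher by its brightest probe (adjusted p = 0.00012). Of its 2 probes, the other was higher by less, 1.19 against 2.86, with the undetected cortical signal limiting both values. Mia, a secreted chondrocyte protein, was at least 4.86-fold higher, and Col9a2, a chain of type IX collagen, differed by 2.54 ± 0.46.

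Chad, the collagen-binding chondroadherin, was detected in both bones and was higher by 1.94 ± 0.57 (adjusted p = 0.014, and 0.053 without BeadChip 3). The list did not move as a block. Col2a1, the main collagen of cartilage, had 10.51, 11.12, 11.42, 12.11 and 10.81 in trabecular and 10.70, 11.69, 11.08, 11.78 and 10.32 in cortical bone. Its groups overlapped throughout, with a difference of 0.08 ± 0.43 (adjusted p = 0.92). Matn4, a matrilin, was the 1 member lower, at -1.51 ± 0.43 (adjusted p = 0.011, 0.063 without BeadChip 2 and 0.066 without BeadChip 3). The mean level of the list was 7.85, 7.50, 8.06, 8.53 and 7.82 on trabecular and 6.83, 6.94, 7.02, 6.97 and 6.76 on cortical arrays.

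Alpha-1 antitrypsin genes, inhibitors of neutrophil elastase, were also higher. Serpina1b had 9.79, 8.92, 9.94, 10.43 and 9.65 in trabecular bone and 6.30, 5.68, 5.01, 5.40 and 5.01 in cortical bone, where 0 arrays detected it. It was at least 8.93-fold higher (adjusted p = 2.8e-09), and Serpina1d at least 7.71-fold higher (adjusted p = 8.3e-08). The mouse Serpina1 genes are near-identical copies, so these probes may not tell them apart. Meltf, melanotransferrin, was at least 1.98-fold higher, and Prkg2, the cyclic GMP-dependent kinase of the growth plate, was higher by 1.61 ± 0.37.

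Of 16 tested Hox genes, which mark position along the body, 2 were higher (12.5%, against 9.5% of all genes), 3 were lower (18.8%, against 12.7% of all genes) and 11 did not pass. After median scaling 1 was higher and 3 lower, and the list median lay near 0 with either sign over the alternatives. Hoxc10, a posterior Hox gene, had 7.11, 7.0, 7.73, 7.76 and 7.60 in trabecular and 9.03, 9.65, 10.28, 9.46 and 9.60 in cortical bone. The difference was -2.16 ± 0.37 (adjusted p = 6.2e-05), without overlap. Its neighbours in the cluster, Hoxc9 (-2.03 ± 0.34) and Hoxc6 (-1.05 ± 0.24), were lower too. Hoxb5, a gene of the B cluster, had 8.70, 7.82, 7.77, 7.87 and 7.79 in trabecular and 5.90, 6.71, 7.22, 7.28 and 6.43 in cortical bone, so it was higher by 1.28 ± 0.26 (adjusted p = 0.00040), again without overlap. Hoxb7 was higher by 0.92 ± 0.26 (adjusted p = 0.011, 0.18 after median scaling and 0.054 without BeadChip 2). Hoxa13, the most distal A-cluster gene, differed by -0.10 ± 0.24 and did not pass.

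Among 15 tested patterning factors outside the Hox clusters, 8 were lower and 1 was higher (53.3% and 6.67%, against 12.7% and 9.5% of all genes). The median was -0.90, and 6 were detected on 0 trabecular arrays. After median scaling 7 were lower and 0 higher, and without BeadChip 1 and with the block 9 were lower and 0 higher. Shox2, a homeobox factor of the proximal limb, had 5.24, 5.94, 5.92, 5.20 and 5.45 in trabecular and 8.56, 8.74, 9.04, 9.04 and 8.03 in cortical bone. With detection on 0 trabecular and 5 cortical arrays, it was at least 3.51-fold lower by its brightest probe (adjusted p = 6.5e-13). Of its 2 probes tested, the other was lower by less, -1.59 against -3.14, with the undetected trabecular signal limiting both values. Meox2, a homeobox factor of somites and limb muscle, was at least 2.16-fold lower. Zic1 was the member called higher, yet 0 of the 10 arrays detected it, so no difference is given. The hindlimb identity factors Tbx4 and Pitx1 and the limb Hox gene Hoxa11 were detected on 0 of the 10 arrays and were not tested.

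Genes of fibrous tissue and of the collagenous matrix were lower in trabecular bone. Of 20 tested genes of periosteum, tendon and fibroblasts, 14 were lower (70%, against 12.7% of all genes) and 0 higher. The median was -1.46, and the same count was lower after median scaling. Of the 20, 8 were detected on 0 trabecular arrays and could be tested through cortical arrays alone. Over the alternatives, which did not all test the same genes, 5 to 16 were lower. Thbs2, the matrix protein thrombospondin 2, had 8.93, 8.42, 8.83, 8.71 and 9.0 in trabecular and 10.65, 11.01, 11.61, 11.09 and 11.04 in cortical bone. The difference of -2.30 ± 0.39 (adjusted p = 5.3e-05) was far larger than the spread within either bone. Tnn, a tenascin of periosteum, was at least 2.10-fold lower with 0 trabecular arrays detecting it, and Fbln2, fibulin 2, differed by -2.64 ± 0.40. Ptn, the heparin-binding growth factor pleiotrophin, which lies outside the list, was at least 6.38-fold lower.

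Of 19 collagen chains tested, 12 were lower (63.2%, against 12.7% of all genes) and 0 higher, with a median of -1.34. Of the 19, 3 were detected on 0 trabecular arrays. Col3a1, the fibrillar collagen of soft connective tissue, had 5.46, 6.62, 5.96, 6.11 and 6.70 in trabecular bone, where 2 arrays detected it, and 8.66, 9.95, 10.48, 10.11 and 9.48 in cortical bone. The difference was -3.56 ± 0.57 (adjusted p = 2.0e-05). Col12a1 (-1.87 ± 0.34), Col15a1 (-2.27 ± 0.32) and Col16a1 (-2.05 ± 0.34) followed, while Col1a1 did not pass, as given above. Enzymes that modify collagen were lower in 10 of 17 tested (58.8%, against 12.7% of all genes) and higher in 0. The lower ones included the lysyl hydroxylase Plod2 (-1.47 ± 0.25) and the cross-linking oxidase Loxl1 (-1.02 ± 0.17). After median scaling 6 of the 17 were lower.

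Small leucine-rich proteoglycans, which bind and space collagen fibrils, were lower in 8 of 9 tested (88.9%, against 12.7% of all genes). The lower ones included Fmod, fibromodulin (-2.40 ± 0.52), Ogn, osteoglycin (-1.80 ± 0.27), and Dcn, decorin (-1.19 ± 0.20). The member higher (11.1%, near the 9.5% of all genes) was Chad, which is also on the cartilage list. After median scaling 5 were lower and 1 higher. Of 16 matrix metalloproteinases and their inhibitors tested, 10 were lower (62.5%, against 12.7% of all genes) and 0 higher. Of the 16, 4 were detected on 0 trabecular arrays, so the filter on detection may partly set the count. Mmp2, a gelatinase, differed by -1.64 ± 0.26, and Timp2, which inhibits it and takes part in its activation, by -1.32 ± 0.21. Without BeadChip 1 and with the block, 10 were lower and 1 higher.

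Genes of signalling pathways that passed were lower in trabecular bone too, and the cells they came from were not tested. Of 22 Wnt pathway genes tested, 14 were lower (63.6%, against 12.7% of all genes) and 0 higher, but 8 were detected on 0 trabecular arrays. Such genes could be tested through cortical arrays alone. Over the alternatives, which did not all test the same genes, 3 to 16 were lower. Dkk3, a secreted dickkopf-family protein, had 6.44, 6.76, 7.68, 8.32 and 7.35 in trabecular and 9.19, 10.26, 10.40, 10.23 and 9.76 in cortical bone. No trabecular value reached a cortical one, with a difference of -2.66 ± 0.39 (adjusted p = 6.6e-06). Wnt5b, a non-canonical ligand, differed by -1.92 ± 0.30, and Ccn4, a Wnt-induced matricellular protein, by -1.68 ± 0.24. Of 22 genes of the TGF-beta and BMP pathways tested, 15 were lower (68.2%, against 12.7% of all genes) and 0 higher. Among them were the ligands Tgfb2 (-2.28 ± 0.31) and Tgfb3 (-1.45 ± 0.30) and Ltbp1, which holds latent TGF-beta in the matrix (-1.69 ± 0.24).

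The insulin-like growth factor (IGF) axis had 7 of 16 tested genes lower (43.8%, against 12.7% of all genes) and 0 higher, and 3 lower after median scaling. Of the 16, 3 were detected on 0 trabecular arrays. Without BeadChip 1 and with the block, 8 were lower and 1 higher. Igf2, a fetal growth factor, had 9.14, 8.71, 8.78, 9.29 and 8.76 in trabecular and 11.53, 11.77, 11.95, 11.81 and 11.44 in cortical bone. H19, the long noncoding RNA of the same imprinted locus, had 6.10, 7.14, 7.75, 8.64 and 7.43 in trabecular and 9.18, 10.26, 9.56, 10.65 and 11.10 in cortical bone. Neither gene's groups overlapped, and the differences were -2.76 ± 0.39 (adjusted p = 4.3e-06) and -2.74 ± 0.56 (adjusted p = 0.00048). Ghr, the growth hormone receptor, differed by -0.98 ± 0.21 (adjusted p = 0.00097, and 0.059 after median scaling).

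Vessel genes were lower in trabecular bone. Of 19 endothelial genes tested, 13 were lower (68.4%, against 12.7% of all genes) and 0 higher, with a median of -0.72, and 6 were lower after median scaling. Flt1, a receptor of vascular endothelial growth factor, had 9.69, 9.73, 10.12, 9.89 and 10.16 in trabecular and 11.07, 10.87, 11.28, 11.26 and 11.35 in cortical bone. Every trabecular value was lower, and the difference was -1.25 ± 0.17 (adjusted p = 2.6e-06). Smooth muscle and pericyte genes were lower in 8 of 10 tested (80%, against 12.7% of all genes). Rgs5, a pericyte marker, was at -2.13 ± 0.40 and Notch3, the receptor of mural cells, at -1.61 ± 0.21. Des, desmin, which skeletal muscle also makes, differed by -3.29 ± 0.45.

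Genes of marrow stroma and fat that passed were mostly lower in trabecular bone. Cxcl12, the chemokine that retains blood stem cells, had 14.59, 14.39, 14.29, 14.32 and 14.35 in trabecular and 14.72, 14.69, 14.30, 14.78 and 14.31 in cortical bone. It was bright on every array, the groups overlapped, and the difference was -0.17 ± 0.14 (adjusted p = 0.41). Values this near the top of the quantile-normalized scale may hide a larger difference. Of 17 genes of the marrow stromal niche tested, 8 were lower and 1 was higher (47.1% and 5.88%, against 12.7% and 9.5% of all genes). After median scaling 1 was lower and 0 higher, and without BeadChip 1 and with the block 10 were lower and 2 higher. The member higher was Hp, haptoglobin, at 0.56 ± 0.20 (adjusted p = 0.043), with an adjusted p of 0.68 after median scaling and of 0.058 to 0.15 without BeadChip 2, 3, 4 or 5, without the trabecular array of BeadChip 1, 3 or 5, or without the cortical array of BeadChip 1, 2, 3 or 4. Adipoq, the fat-cell and stromal hormone adiponectin, had 11.33, 11.60, 11.15, 11.24 and 11.58 in trabecular and 11.96, 12.18, 12.37, 12.28 and 12.05 in cortical bone, a difference of -0.79 ± 0.20 (adjusted p = 0.0039, and 0.23 after median scaling). Of 15 adipocyte genes tested, 7 were lower (46.7%, against 12.7% of all genes) and 0 higher. Lower members included Plin4, a lipid droplet protein (-2.99 ± 0.47), and Car3, a carbonic anhydrase also made by slow muscle (-1.85 ± 0.40). Of the 15, 3 were detected on 0 trabecular arrays. After median scaling 3 of the 15 were lower.

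Red cell precursor genes were higher in trabecular bone. Of 34 erythroid and heme genes tested, 18 were higher (52.9%, against 9.5% of all genes), 1 lower (2.94%, against 12.7%) and 15 did not pass, with a median of 0.57. After median scaling the median was 0.46 with 1 gene higher and 1 lower. Alas2, the first enzyme of heme synthesis in red cells, had 14.55, 14.28, 13.94, 14.10 and 14.01 in trabecular and 13.44, 13.41, 13.22, 12.88 and 13.29 in cortical bone. The lowest trabecular array lay above the highest cortical one, and the difference was 0.93 ± 0.17 (adjusted p = 0.00014, and 0.26 after median scaling). Epb41, a protein of the red cell membrane skeleton, was higher by 1.65 ± 0.31 and was the gene that also passed after median scaling (adjusted p = 0.019).

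Rhag, the Rh-associated membrane glycoprotein, had 10.76, 10.03, 9.03, 10.24 and 10.16 in trabecular and 9.79, 8.84, 7.22, 8.74 and 9.43 in cortical bone. It was higher on all 5 BeadChips, by 1.24 ± 0.34 (adjusted p = 0.0076), although the groups overlapped, and its adjusted p was 0.053 without the cortical array of BeadChip 3. Fech, which inserts iron into heme, was higher by 1.16 ± 0.29. Hbb-b1, a beta globin gene named after its values were seen, did not pass, with 13.05, 11.28, 12.43, 12.49 and 11.36 in trabecular and 12.98, 12.47, 10.77, 12.71 and 9.91 in cortical bone and a difference of 0.35 ± 0.55 (adjusted p = 0.69). Sptb, the beta spectrin of red cells that muscle also makes, was the member lower, at -1.74 ± 0.45.

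GATA factors bind the letters AGATAA in control regions of red cell genes, so the RefSeq promoters (mouse build GRCm38.p6) of the 18 erythroid genes called higher were searched for these letters on both strands, from 250 bases before to 50 after the first listed start. The table held a promoter for 13 of the 18, and 7 of these had the letters. Because 5 of the 18 had no promoter there, a comparison with other genes is void and none is drawn. For background only, the letters stood in 11.4% of all 27025 mouse promoters and in 6.39% of 7273 promoters of genes tested here. In 5 genes, chosen after their values were seen, the match began within 100 bases before the start. Their 120 bases before the start are printed below, 5′ to 3′ on the gene's strand, with the match in capitals (TTATCT is AGATAA on the other strand).
Alas2, chrX:150547297-150547416, plus strand: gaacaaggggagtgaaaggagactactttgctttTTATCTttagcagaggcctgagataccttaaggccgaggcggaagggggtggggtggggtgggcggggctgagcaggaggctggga
Epor, chr9:21963577-21963696, minus strand: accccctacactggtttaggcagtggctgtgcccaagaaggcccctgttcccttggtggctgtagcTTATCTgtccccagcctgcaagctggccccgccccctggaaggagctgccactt
Rhd, chr4:134864416-134864535, plus strand: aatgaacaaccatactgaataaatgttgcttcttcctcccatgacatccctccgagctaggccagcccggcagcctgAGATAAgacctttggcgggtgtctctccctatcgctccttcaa
Kel, chr6:41704326-41704445, minus strand: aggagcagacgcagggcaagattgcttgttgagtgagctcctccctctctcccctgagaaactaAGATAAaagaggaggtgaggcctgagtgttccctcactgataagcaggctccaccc
Icam4, chr9:21029312-21029431, plus strand: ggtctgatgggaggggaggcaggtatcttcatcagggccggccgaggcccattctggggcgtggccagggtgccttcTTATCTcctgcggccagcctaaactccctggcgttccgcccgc
The match began 86 bases before the start in Alas2, 54 in Epor, 43 in Rhd, 56 in Kel and 43 in Icam4. A match is a description of these letters and not evidence that a factor binds there. Epor, the erythropoietin receptor, averaged 9.77 ± 0.11 in trabecular and 8.90 ± 0.22 in cortical bone (SD, n = 5 each), higher by 0.86 ± 0.22. Kel, a blood group endopeptidase, averaged 12.08 ± 0.24 in trabecular and 11.30 ± 0.46 in cortical bone, higher by 0.78 ± 0.23. Icam4, a red cell adhesion protein, was higher by 0.70 ± 0.25. Rhd, an Rh protein, was detected on 1 trabecular and 0 cortical arrays. Its adjusted p of 0.038 was above 0.05 without any 1 of BeadChips 1, 2, 4 and 5 and without the trabecular array of BeadChip 1 or the cortical array of BeadChips 1, 2, 3 or 4, at most 0.21.

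Of 19 B-lineage genes tested, 6 were higher (31.6%, against 9.5% of all genes) and 0 lower, with a median of 0.74. Pou2af1, a coactivator of B-cell genes, had 11.41, 11.61, 10.92, 12.04 and 12.12 in trabecular and 10.76, 10.91, 9.60, 9.75 and 11.52 in cortical bone. It was higher on all 5 BeadChips, although the groups overlapped, by 1.11 ± 0.32 (adjusted p = 0.012). Its adjusted p was 0.26 after median scaling, 0.14 without BeadChip 4, and 0.060 and 0.054 without the cortical arrays of BeadChips 3 and 4. T and NK genes were higher in 4 of 17 tested (23.5%) and mast cell, basophil and eosinophil genes in 3 of 11 (27.3%). Monocyte and macrophage genes were higher in 1 of 17 (5.88%) and megakaryocyte genes in 2 of 13 (15.4%), shares below or near that of all genes. In these lists 0 genes were lower. Without BeadChip 1 and with the block, 5 mast cell, 3 monocyte and 0 megakaryocyte genes were higher, and 1 T and NK gene was lower. After median scaling none of these 5 lists had a gene that passed in either direction.

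Neutrophil and granule genes were higher in 3 of 26 tested (11.5%, near the 9.5% of all genes) and lower in 0, with a median of 0.23. Without BeadChip 1 and with the block, 10 of the 26 were higher. Cxcr2, the chemokine receptor of mature neutrophils, had 10.75, 11.04, 11.36, 11.06 and 11.16 in trabecular and 10.51, 10.23, 9.53, 10.18 and 10.29 in cortical bone, higher by 0.93 ± 0.28 (adjusted p = 0.017, without overlap). Its adjusted p was 0.22 after median scaling, 0.054, 0.15 and 0.069 without BeadChips 2, 3 and 4, and 0.067 without the cortical array of BeadChip 3. Padi4, the enzyme that citrullinates histones in neutrophils, was higher by 1.34 ± 0.34, and it was the neutrophil gene that also passed after median scaling (adjusted p = 0.014). Without BeadChip 3 its adjusted p was 0.074.

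Cell division genes were higher in 12 of 33 tested (36.4%, against 9.5% of all genes) and lower in 0, with a median of 0.53. Aurka, a kinase of the mitotic spindle, had 11.15, 11.19, 11.25, 11.04 and 11.39 in trabecular and 10.53, 10.28, 10.56, 10.19 and 10.62 in cortical bone. Every trabecular value was higher, and the difference was 0.77 ± 0.15 (adjusted p = 0.00027, and 0.39 after median scaling). Without BeadChip 1 and with the block, 24 of these genes were higher. Interferon-response genes were higher in 6 of 18 tested (33.3%, against 9.5% of all genes) and lower in 0. Rsad2, the antiviral protein viperin, had 13.79, 13.49, 13.51, 13.54 and 13.55 in trabecular and 12.77, 12.57, 12.53, 12.65 and 12.79 in cortical bone, higher by 0.91 ± 0.29 (adjusted p = 0.021, 0.48 after median scaling and 0.089, 0.062 and 0.081 without BeadChips 2, 3 and 4). Oas2, which makes the activator of an antiviral RNase, was higher by 1.24 ± 0.28. After median scaling 0 genes of either list passed.

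**Figure D3:**
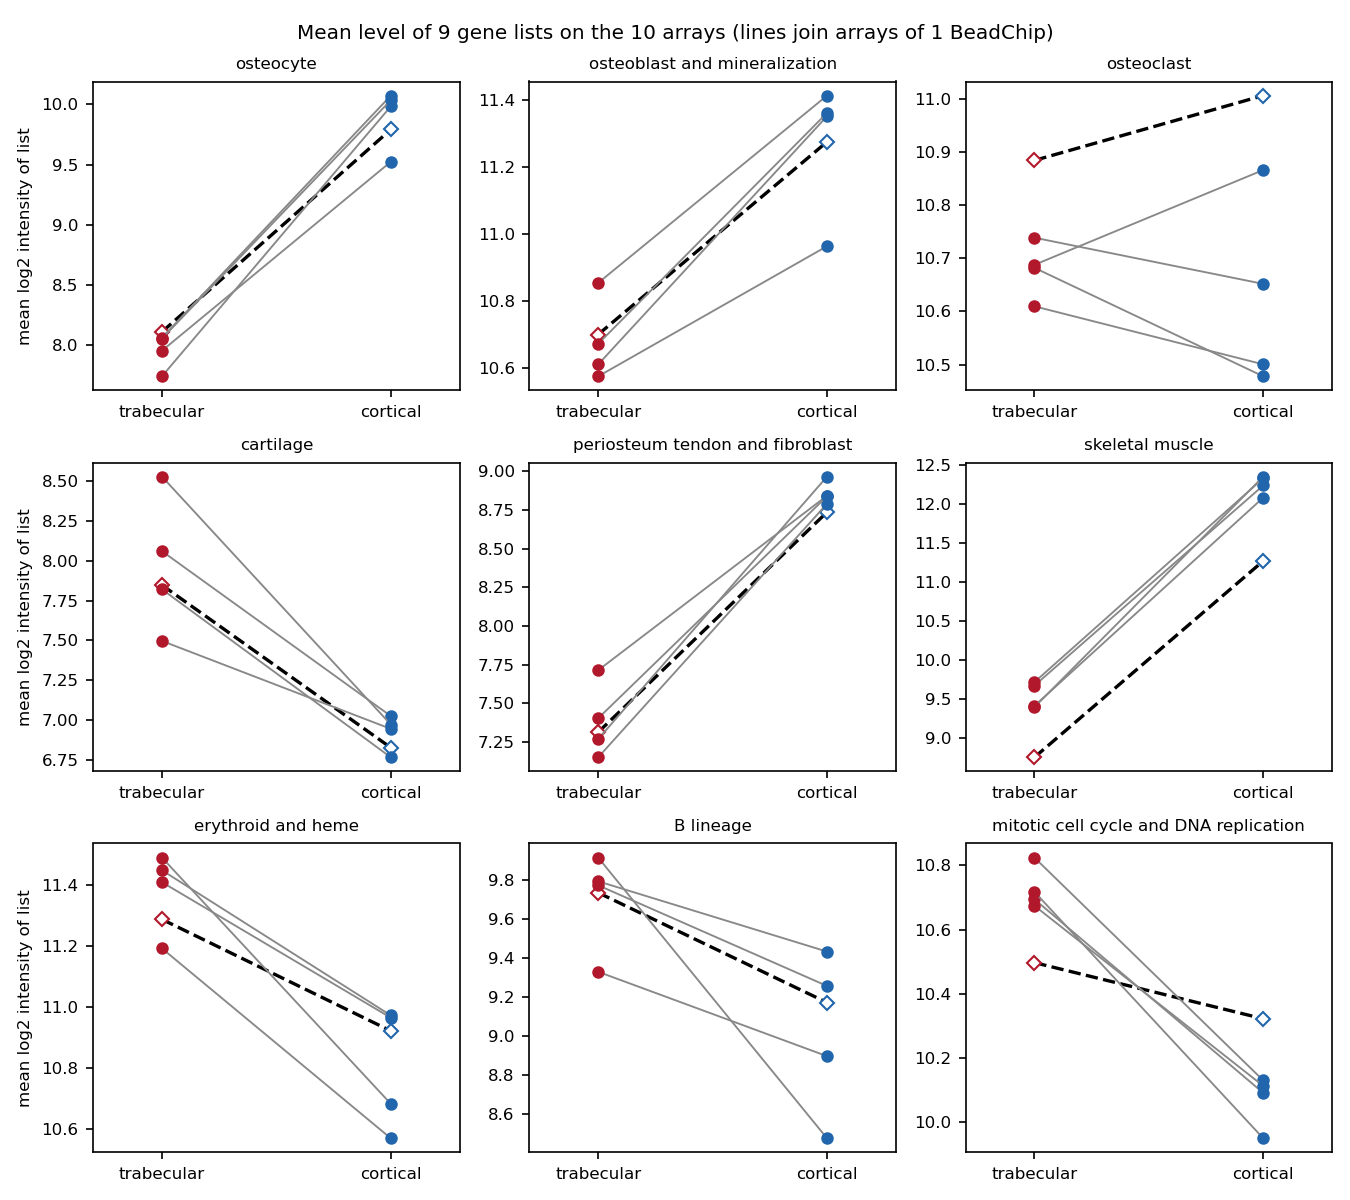
Mean log2 intensity (vertical axis) of the tested genes of 9 lists on each array of AF-1-deleted vehicle bone, trabecular left (red) and cortical right (blue). Lines join the arrays of 1 BeadChip, and open diamonds with a dashed line are BeadChip 1. The osteocyte, osteoblast, periosteum and skeletal muscle levels are below the cortical ones on all 5 BeadChips and the cartilage, erythroid, B-lineage and cell division levels above them, while the osteoclast lines run both ways.

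Of 56 tested subunits of oxidative phosphorylation, 14 were lower (25%, against 12.7% of all genes) and 0 higher. The list median was small, at -0.30, and 0 passed after median scaling. Without BeadChip 1 and with the block, 26 were lower and 1 higher. Ndufb5, a subunit of complex I, differed by -1.04 ± 0.28 and Sdhb, of complex II, by -0.77 ± 0.22 (adjusted p = 0.012, 0.11 without BeadChip 2, 0.052 without BeadChip 3 and 0.051 without the cortical array of BeadChip 2). Of 20 heat shock and chaperone genes, 5 were lower and 1 was higher (25% and 5%, against 12.7% and 9.5% of all genes). After median scaling 5 were lower and 0 higher, and without BeadChip 1 and with the block 5 were lower and 4 higher. The lower ones included Cryab (-2.83 ± 0.41) and Hspb8 (-3.25 ± 0.58), small heat shock proteins that are abundant in muscle. The higher one was Hspa5, the chaperone of the endoplasmic reticulum, at 0.85 ± 0.29 (adjusted p = 0.035), with an adjusted p of 0.29 after median scaling and of 0.050 to 0.14 without BeadChip 2, 3, 4 or 5, without the trabecular array of BeadChip 1, 3 or 5, or without the cortical array of BeadChip 1, 3 or 5. Of 14 clock genes, 6 were lower (42.9%, against 12.7% of all genes) and 0 higher, with a median of -0.91. Without BeadChip 1 and with the block 10 were lower and 1 higher. Dbp, a clock output factor, had 10.72, 11.24, 10.98, 10.83 and 10.89 in trabecular and 11.63, 12.33, 12.64, 12.47 and 12.45 in cortical bone. The groups did not overlap, and the difference of -1.37 ± 0.39 (adjusted p = 0.010) had an adjusted p of 0.054 after median scaling and 0.062 without BeadChip 4. Nr1d1, a repressor of the clock loop, differed by -1.63 ± 0.32. Of 18 immediate early genes, 5 were lower (27.8%, against 12.7% of all genes) and 0 higher, and 3 were lower after median scaling. Ccn1, a matricellular protein, led them (-2.51 ± 0.43), and 3 of the 18 were detected on 0 trabecular arrays. Of 8 nerve and myelin genes, 2 were higher and 2 lower (25% each, against 9.5% and 12.7% of all genes). Of the 8, 3 were detected on 0 trabecular arrays, and after median scaling 0 were higher and 2 lower. The myelin proteins Mbp (0.68 ± 0.17) and Mag (0.76 ± 0.21) were higher, with adjusted p of 0.49 and 0.25 after median scaling, and that of Mag was 0.067 without BeadChip 2 and 0.070 without BeadChip 4. Pmp22, a myelin protein, was lower (-1.28 ± 0.31), and Ncam1, an adhesion molecule detected on 0 trabecular arrays, was at least 1.73-fold lower.

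Of 14 tested genes for estrogen receptors and their coregulators, 3 were higher and 3 lower (21.4% each, against 9.5% and 12.7% of all genes). After median scaling 0 were higher and 1 lower, and without BeadChip 1 and with the block 4 were higher and 6 lower. Gper1, the membrane estrogen receptor, was detected on 0 trabecular and 5 cortical arrays, with 6.90, 6.26, 5.62, 6.18 and 5.59 in trabecular and 7.93, 7.98, 8.12, 8.35 and 7.84 in cortical bone. It was at least 2.25-fold lower (adjusted p = 4.8e-05). Carm1, an arginine methyltransferase that acts as coactivator, was higher by 0.81 ± 0.22 (adjusted p = 0.0082, 0.17 after median scaling and 0.056 without the cortical array of BeadChip 3). The estrogen targets Pgr and Greb1 and the second receptor gene Esr2 were detected on 0 of the 10 arrays and were not tested.

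The next question was whether the difference between the bones depends on AF-1. The bone difference of AF-1-deleted vehicle mice minus that of wild-type vehicle mice passed limma's test for 0 of 9452 genes (0%), with 258 genes (2.73%) at an unadjusted p under 0.05 and an adjusted p of 0.999 for the genes with the smallest p. Ushbp1, a binding partner of harmonin, had the smallest p, 0.00020, but it was detected on 0 of the 5 AF-1-deleted trabecular arrays, so no size is given. Taken alone, wild-type vehicle mice had 1950 genes (20.6%) called between the bones. Of the 2103 genes called in AF-1-deleted mice, 1279 were also called in wild type in the same direction (60.8% of the AF-1-deleted and 65.6% of the wild-type list), 0 in the opposite direction, and 2068 had the same sign.

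Side by side, Mepe differed between the bones by -3.20 in AF-1-deleted and -3.24 in wild-type mice, Tnfrsf11b by -1.78 and -1.71, and Alas2 by 0.93 and 0.85. Values lay further apart for other genes. Igf2 gave -2.76 in AF-1-deleted and -2.0 in wild-type mice, Thbs2 -2.30 and -3.05, and Hoxb5 1.28 and 0.69. Rhag gave 1.24 in AF-1-deleted and 0.46 in wild-type mice, and Car2 0.77 and 0.15, and neither was called in wild type (adjusted p = 0.35 and 0.72). Bglap1 gave -0.03 in AF-1-deleted and -0.55 in wild-type mice, and Col1a1 -0.37 and -0.81, both called in wild type alone (adjusted p = 0.0093 and 0.00095). None of these differences between genotypes passed limma's test. List medians were -1.69 in AF-1-deleted and -1.87 in wild-type mice for osteocytes, -2.67 and -2.63 for skeletal muscle and 0.57 and 0.60 for erythroid genes. Other medians lay further apart, at 0.59 and 0.24 for interferon-response genes and 0.43 and 0.12 for monocyte and macrophage genes. That of nerve and myelin genes had opposite signs, at -0.75 and 0.63. The medians were not tested between genotypes. A test that misses the threshold does not show that the bone difference is the same in both genotypes. Both genotypes had few detected probes on the trabecular array of BeadChip 1 (8052 in AF-1-deleted and 8573 in wild-type mice). The part of these arrays in the shared calls was not tested.

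**Figure D4:**
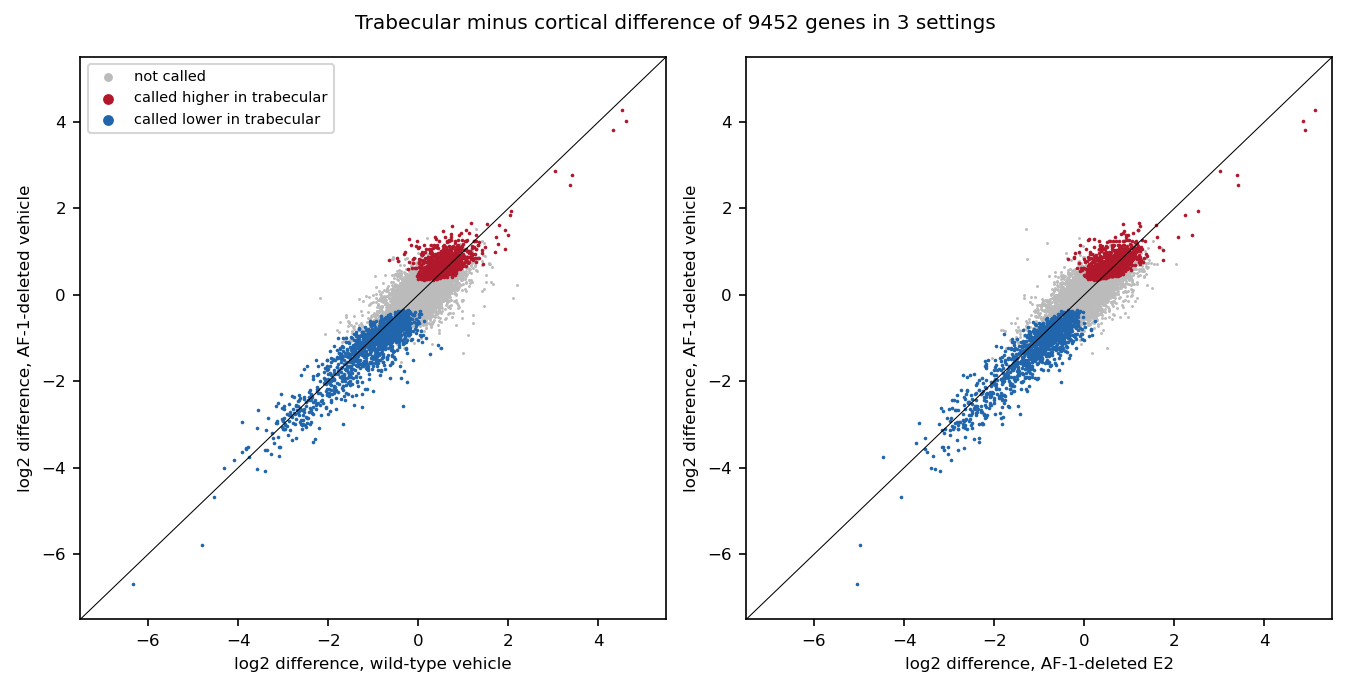
Trabecular minus cortical log2 difference of 9452 genes in AF-1-deleted vehicle mice (vertical axis) against the same difference in wild-type vehicle mice (left, horizontal axis) and in AF-1-deleted mice given E2 (right, horizontal axis). Red and blue points passed the test in AF-1-deleted vehicle mice, grey points did not, and the line marks equal differences. Points scatter along the line in both plots. Genes called in AF-1-deleted vehicle mice had a median absolute difference of 0.88 there, 0.73 in wild type and 0.75 under E2. They were chosen by the vertical axis, which by itself favours larger values there.

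Set against E2-treated mice of the same genotype, the difference between the bones again gave 0 called genes by limma for vehicle minus E2 (0%), with 202 (2.14%) at an unadjusted p under 0.05. Ppp1r3f, a regulatory subunit of protein phosphatase 1, had the smallest p, 0.0031, and it too was detected on 0 of the 5 vehicle trabecular arrays. Under E2, 2168 genes (22.9%) were called between the bones, and 1370 of the 2103 genes called under vehicle were called there in the same direction (65.1% of the vehicle and 63.2% of the E2 list). No gene was called in opposite directions. The E2 trabecular array of BeadChip 1 also had few detected probes (9218), and its part in the shared calls was not tested. Esr1 differed between the bones by -0.69 under vehicle and -0.96 under E2, Igf2 by -2.76 and -1.43, and Myl3 by -6.70 and -5.06. The osteocyte median was -1.69 under vehicle and -1.47 under E2, with all 10 tested genes lower in both.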

How the data were processed

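Per the file headers, the main deposited table pairs every probe's average signal, an intensity, with a detection p-value. GenomeStudio was used, per the submitters' processing notes, and no version is given there. The values carry no background correction and no normalization between arrays, as judged from the values. A second table deposited by the authors holds intensity after quantile normalization, again judged from the values, and served as an alternative. Of 25697 probes, 20733 carried a current symbol, 3 differed from one only in letter case, 3872 matched a synonym in the RefSeq gene table, and 1089 kept the file's name, which gave 17916 genes. Value columns without a sample numbered 0.

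The neqc function corrected background, added an offset of 16, quantile-normalized all 40 arrays and took log2, with control levels inferred from the detection p-values (limma 3.58.1, R 4.3.3, statmod 1.5.0). Probes needed a detection p under 0.01 on 5 or more arrays, and the brightest such probe stood for its gene. Group means of all 40 arrays were fitted with lmFit and eBayes, the Benjamini-Hochberg adjustment ran over 9452 genes, with calls at an adjusted p under 0.05. The number of arrays and the signal over background limit the precision. In simulated arrays made from the means and spreads of these 9452 genes, the fit for this comparison found 9 of 67 genes changed by 0.5, 50 of 67 changed by 1 and 64 of 66 changed by 2 on the log2 scale, with 2 false calls. Far fewer genes were changed there than were called in the real arrays. The simulated noise was independent, with no BeadChip effect and no weak array. Shares found and false calls may therefore differ in the real arrays. For genes with detection on 0 arrays in 1 of the bones, the fold is the bright group's mean against the dim group's mean of, per array, the higher of the lowest detected signal and the gene's own.

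The members and the 35 gene lists were chosen with earlier results of these data known. Named genes were, among called genes of 1 sign on all BeadChips and without clone-like names, the 15 largest differences each way, then, whatever their sign by BeadChip, up to 5 called members of each list in each direction, 23 genes always read, and the 5 smallest p-values where fewer than 5 genes were called. Of 918 list genes, 853 were on the array. Each replicate number marks a BeadChip, per the titles in the labels. Residuals of the 2 arrays of a number correlated at 0.0950 to 0.484 (mean 0.223) across genes, which are not independent replicates. For arrays of different numbers the mean was -0.0508. Residuals were centred within each group, which by itself pulls that mean below 0, so it is no separate baseline. The BeadChip as a block was an alternative.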

Additional observations from a re-analysis of the deposited data

Results flagged for a closer look

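Among 170 sets of 5 arrays examined (genes shown by array, list means and detected probes, in each bone), 17 had an array set apart from the other 4 by more than Dixon's critical value of 0.71, which chance gives in about 1 of 20 sets. Of these, 8 were the trabecular array of BeadChip 1 and 2 the cortical array of BeadChip 1. On the trabecular array of BeadChip 1, 8052 probes were detected, against 10407 to 10700 on the others. There, Bglap2 was at 14.17 against 14.75 to 14.97, Des at 8.55 against 9.27 to 9.46, Sost, undetected, at 5.88 against 4.92 to 5.02, Hoxb5 at 8.70 against 7.77 to 7.87 and Rsad2 at 13.79 against 13.49 to 13.55. The mean level of limb and axial patterning factors there was 6.47 against 6.86 to 7.01, and that of clock genes 7.72 against 8.13 to 8.21. On the cortical array of BeadChip 1, Des was at 11.48 against 12.62 to 13.04 and the skeletal muscle mean at 11.27 against 12.09 to 12.36.

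On other arrays, Tnfrsf11b was at 7.49 on the trabecular array of BeadChip 2 against 8.46 to 8.66, and Ibsp at 12.54 on that of BeadChip 4 against 12.22 to 12.29. The monocyte and macrophage mean was 10.45 on the trabecular array of BeadChip 3 against 10.67 to 10.73. In cortical bone, Esr1 was at 9.47 on BeadChip 3 against 7.96 to 8.26, Bglap3 at 14.69 on BeadChip 5 against 14.92 to 14.96, the megakaryocyte mean at 11.24 on BeadChip 4 against 10.69 to 10.74 and the marrow stromal niche mean at 10.71 on BeadChip 4 against 10.41 to 10.49.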

How the results depend on the processing

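The count of 2103 called genes moved with array weights, scaling, thresholds and single BeadChips. Median scaling left 804 (51 higher, 753 lower), of which 798 were shared. Requiring detection on all 10 arrays gave 817 higher and 636 lower of 6188 genes tested. Leaving out BeadChip 1, with the block, gave 3386 (1775 higher), array quality weights 3976 (2142 higher, 1834 lower), an adjusted p under 0.01 gave 1070 (291 higher, 779 lower), and a difference of at least 1 gave 843. With the replicate block alone, 2505 genes were called (1158 higher, 1347 lower), 2094 of them shared, and apart from Esr1 no gene described above changed its call. Leaving out a BeadChip or an array gave 1131 (without BeadChip 2) to 2716 (without BeadChip 1) called, 335 to 1329 higher and 796 to 1387 lower. The count fell to 1209 without BeadChip 3 and 1280 without BeadChip 4, and the higher count to 392 and 379 without these and to 544 and 566 without their cortical arrays. Other alternatives gave 1800 to 2194, and the cause of these shifts was not tested. Between genotypes and between treatments, 0 genes were called under each of the 28 alternatives. Of 200 named genes, 187 were called, and all 187 kept their direction. The call was kept in every alternative by 111 and lost in at least 1 by 76. Signs turned only for genes that did not pass: Col2a1 (-0.020 after median scaling, -0.026 with the mean of probes, -0.024 with array weights, -0.15 to 0.25 over left-out arrays), Bglap2 (0.10 without BeadChip 1 with the block, 0.16 with weights, -0.13 to 0.11), Hoxa13 (0.012 with weights, -0.26 to 0.055), Bglap1 (-0.13 to 0.050) and Acp5 (-0.41 to 0.042). Signal over background limits dim genes: 239 of the called genes were detected on 0 trabecular arrays and 38 on 0 cortical arrays.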
